A study of Bos taurus with 35 samples.

Results

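A set of 171 genes that were abundant in muscle and far lower in omental and subcutaneous fat was followed into the intramuscular fat of Hanwoo cattle. The genes were chosen by their median level in muscle, omental and subcutaneous fat, among the 24596 genes of the count tables, in CPM (counts scaled to a common library size by TMM). A member had a muscle median of at least 50 CPM and at least 100 times the medians of both omental and subcutaneous fat. In all, 174 genes met both thresholds, and 3 of them that were on the study's qRT-PCR primer list were left out. The levels in muscle, omental and subcutaneous fat chose the members, so they are given here as a description. The intramuscular libraries took no part in the choice.

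The study compared fat depots of Hanwoo, a Korean beef breed, by RNA sequencing. Fat was taken from within the muscle (I), from under the skin (S) and from the omentum (O), and muscle (M) came from the same animals. By the labels the animals were 30 months old, and 3 were female, 3 castrated male and 3 male. Analysed here were 9 O, 8 I, 9 S and 8 M libraries. The I library of replicate 9 was not analysed here, and no M library of replicate 7 was among the labelled samples. All are whole tissue pieces, in which fewer muscle fibres and less RNA per fibre cannot be told apart.

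Skeletal muscle fibres are filled with sarcomeres, in which thick filaments of myosin pull on thin filaments of actin, tropomyosin and troponin. Together with the proteins that release and retake calcium and those that supply energy for contraction, sarcomere proteins take a large part of the messenger RNA of a fibre. Intramuscular fat, the marbling of beef, lies between the bundles of fibres, whereas omental and subcutaneous fat lie outside the muscle. The tables identified genes by Ensembl number without a symbol, and no full list of symbols for these numbers was at hand. The roles of individual members are therefore not given, and lists of sarcomere, calcium handling and energy genes were not applied.

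The total count on genes was 4363871 to 6505720 in I, 3726376 to 6612376 in M, 4187267 to 6141691 in O and 4913519 to 7184022 in S. The fat synthesis gene FASN (fatty acid synthase) lay at 217 to 1470 CPM in I, 49.2 to 123 CPM in M, 1155 to 5090 CPM in O and 1062 to 8344 CPM in S. DGAT2, which makes triglyceride in its last step, lay at 182 to 1373 CPM in I and at 20.8 to 214 CPM in M. The I library of replicate 4 had the lowest level of both genes within I. That of replicate 3 had the highest DGAT2 within I, 1373 CPM, and 728 CPM of FASN, against an I median of 599 CPM. One M library went against its label. Over 5 genes that were at least 8-fold higher in every male or castrated than in every female fat library, the summed level was at most 0.300 CPM in the female fat libraries and at least 115 CPM in the others. It was 211 CPM in the library labelled M of replicate 4, a female, and 0.416 CPM in M of replicate 1, the other female. The main results that rest on the library labelled M of replicate 4 are therefore also given without it. Without it the rule again gave 171 members, of which 168 were shared.

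In muscle the medians of the members ran from 51.9 to 51409 CPM, with 612 CPM in the middle of the list. The members together took 27.3 to 38.9% of the counts of an M library. The 5 highest members held 31.4% of the members' CPM in muscle. In O the members took 0.0373 to 0.0693% of the counts and in S 0.0318 to 0.0605%. The median was 0 in both of these fats for 31 members, and 3 members had no count in any O or S library. The 2 members just inside the muscle threshold had medians of 51.9 and 52.0 CPM, and the 2 genes just outside had 49.1 and 49.0 CPM. For the threshold on the fold, the 2 members just inside stood at 101 and 107 times the higher fat median, against 94.0 and 93.1 for the 2 genes just outside.

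In I, between 162 and 171 of the members had at least 1 count in a library, against 123 to 149 in O and 124 to 140 in S. The members took 0.164 to 1.62% of the counts of an I library, with a median of 1.01% over the 8 libraries. This was 8699 to 105355 counts per I library, against 2021 to 3734 in O and 1721 to 3147 in S. The I libraries thus lay between the other fats and muscle with no overlap. The medians of single members in I ran from 0.333 to 726 CPM, with 9.05 CPM in the middle of the list.

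Gene by gene, 83 of the 171 members had a higher level in every I library than in any O or S library, beside 4.64% of the 13306 genes tested against either fat. The 171 include members that did not pass the count filter of these tests, whereas the 13306 genes passed it against O or S. Against O, 101 members passed the count filter and 96 of these were higher in I by edgeR's quasi-likelihood test at an adjusted p under 0.01, beside 17.3% of the 13156 genes tested. Against S, 98 members passed and 96 were higher, beside 17.5% of 13077 genes. No member was lower in I in either comparison. Without the filter all 171 members were fitted, and 159 were higher in I than in O (14.1% of all genes) and 162 higher than in S (14.2%). Low levels in O and S were part of the choice of members, and most low members could pass the filter only through I, so these counts are descriptions. Both comparisons use the same I libraries.

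To set the members on one scale, the level of each in an I library was expressed as a share of its way from the fat level to the muscle level. The fat level was the mean of the O and S means, so a library with fat levels only would have a share near 0 and a library with muscle levels a share near 100%. The median over the 171 members, called the common share, was 1.32% in I of replicate 1, 0.925% in replicate 2, 0.137% in replicate 3, 0.192% in replicate 4, 2.31% in replicate 5, 1.70% in replicate 6, 1.65% in replicate 7 and 2.14% in replicate 8. Replicates 3 and 4 stood apart from the rest, the next library having 4.82 times the share of replicate 4. The highest share was 16.8 times the lowest. Both folds depend on the fat level that is subtracted. By percent of counts on the members, with nothing subtracted, replicate 4 had 0.304% and replicate 2, the next library, 0.683%. The highest such percent was 9.87 times the lowest. The mean was 1.30 ± 0.822% (SD, n = 8) and the median of the libraries 1.48%. The same median was between -0.0129 and 0.0173% in the O libraries and between -0.0141 and 0.0102% in the S libraries, which fixed the zero of the scale.

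**Figure D1:**
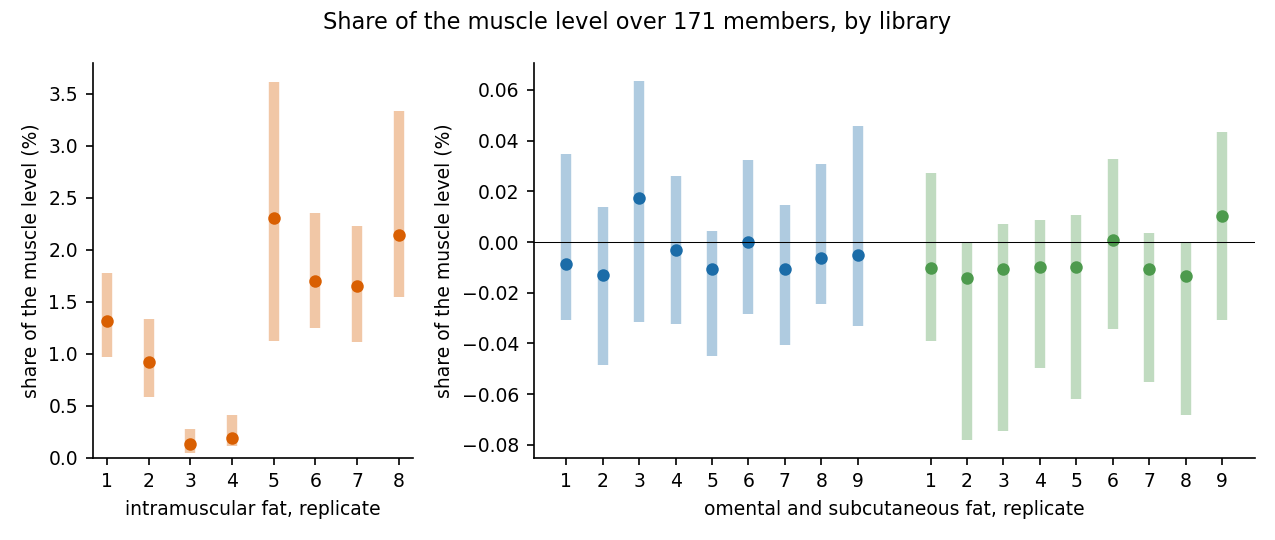
Share of the muscle level (percent) in each intramuscular library (left) and, on a finer axis, in each omental (blue) and subcutaneous (green) library (right). Points are medians over the 171 members and bars run from the first to the last quartile. Intramuscular libraries had medians of 0.137 to 2.31%, and the other fats lay between -0.0141 and 0.0173%.

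The spread of the members within a library was wide beside the differences between most libraries. The quartiles were 0.0444 and 0.280% in I of replicate 3 and 0.110 and 0.416% in replicate 4, which overlapped with each other and lay below those of all other I libraries. The next quartiles upward were 0.580 and 1.33% in replicate 2. In replicate 5 they were 1.12 and 3.61%, and they overlapped with those of replicates 1, 2, 6, 7 and 8. Of the 171 members, 114 had their lowest level within I in replicate 3 and 43 in replicate 4. The highest level was held by replicate 5 for 68 members and by replicate 8 for 67.

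The size of the share rested on how muscle and its scaling were set. The TMM factors were 0.524 to 0.747 in M and 1.01 to 1.12 in I, and without such scaling the median share of the same 171 members over the I libraries was 2.64% in place of 1.48%. The rule applied without scaling gave 130 genes, all of them among the 171. Without the library labelled M of replicate 4 it was 1.46%, and without I of replicates 3 and 4 it was 1.72%. The M libraries themselves had median shares from 52.3% in replicate 8 to 127% in replicate 9. Against the M library of the same animal in place of the M mean, the share was 4.24% in replicate 8, against 2.14% above, and in the other 6 animals with both libraries by the labels it lay between 0.156 and 2.30%, with 0.191% for the library labelled M of replicate 4. The sum over members, in which abundant genes weigh most, gave shares of 0.208 to 2.71%.

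The labels name females, castrated males and males, whereas the study's methods speak of steers, and the labels were followed here. By the sex of the label, the common share was 1.79 ± 0.755% in castrated males (SD, n = 3), 1.05 ± 0.765% in females (SD, n = 3) and 0.917 ± 1.10% in males (SD, n = 2). The groups overlapped, and the difference was not detected (two-sided exact permutation test over 560 arrangements, p = 0.468, the smallest p possible being 0.00357). Replicate 3 was a male and replicate 4 a female, so the lowest shares were in different groups.

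The members were then compared with the common share one by one. The mean share of a member over the 8 I libraries had a median of 1.38% over the list, with quartiles of 1.09 and 1.73% and extremes of 0.459 and 17.1%. The level that the common share of a library predicts was computed for each gene, and 150 of the 171 members were fitted within 2-fold of it over all libraries. The median of observed over predicted lies near 1 by construction, since the members set the share. From library to library, the slope of log2 CPM on the log2 common share had a median of 0.60 over the members, with quartiles of 0.40 and 0.87, and it was under 0.5 for 60 of the 171. The fat level and the 0.5 CPM added before the log flatten such slopes by construction. The predicted levels themselves had a median slope of 0.65, with 41 under 0.5. Within single libraries, 102 to 146 members lay within 2-fold. The fewest were in replicates 5 (102) and 3 (107), and the most in replicate 7 (146). The member most abundant in muscle had 54164 ± 14716 CPM there (SD, n = 8). In I of replicates 1 to 8 it had 640, 479, 69.7, 112, 1995, 875, 893 and 811 CPM. Replicates 3 and 4 were the lowest and replicate 5 the highest. Its log2 ratio of observed over predicted was -0.02 (SE 0.23, edgeR adjusted p = 0.957). None of the 5 members with the highest muscle medians was off the share, with mean shares between 1.02 and 1.37%, but they differed in single libraries. In I of replicate 5, the next 3 members by muscle median had 185, 194 and 122 CPM, which was 0.173, 0.279 and 0.223 times the prediction. In replicate 8 the same members had 1318, 1224 and 929 CPM, their highest levels within I and 1.32 to 1.89 times the prediction. The last of the 5 was highest in replicate 5, with 889 CPM or 1.96 times the prediction.

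**Figure D2:**
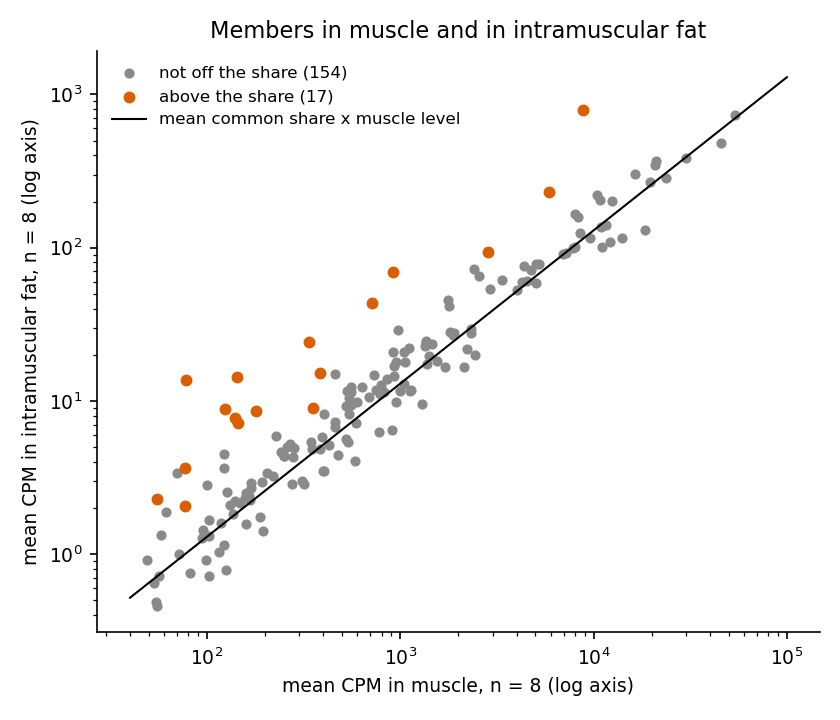
Mean level of each member in muscle (horizontal, CPM, log axis, n = 8) against its mean level in intramuscular fat (vertical, CPM, log axis, n = 8). The line is the mean common share, 1.30% of the muscle level. Grey points are the 154 members that did not pass the test and orange points are the 17 that were above the share, all of which lie above the line.

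Which members were off the common share was tested with edgeR's quasi-likelihood test, in which the predicted level of each gene in each I library was the reference. The test ran over 12447 genes, which included all 171 members, at an adjusted p under 0.01. Above the share were 17 members (9.94%), beside 10.7% of all genes tested. The 2 percentages are close, so the count is no result about the members, and for most other genes the predicted level is close to the level in O and S. No member was below the share, beside 7.41% of all genes. At an unadjusted p under 0.05, 15 members were below, beside 21.3% of all genes, and the lowest adjusted p among members below was 0.0135. The count below depended on the fit, with 3 by the likelihood ratio test, 2 by DESeq2 and 2 with the animal as a block, which left 16 above. The block took the library labelled M of replicate 4 by its label. Without M of replicate 8, the muscle library with the lowest share, 7 were below and 18 above. Without all libraries of replicate 8, 5 were below. Without the library labelled M of replicate 4, 15 were above and none below, and the same counts came without I of replicates 3 and 4.

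The 17 members above the share were fitted at 1.73 to 11.5 times the predicted level, with a median of 3.69. The direction was the same in all 8 I libraries for 11 of them and in 7 of 8 for the other 6. Their muscle medians ran from 52.7 to 8107 CPM with 176 CPM in the middle, against 51.9 to 51409 CPM with 659 CPM in the middle for the 154 others. In I of replicates 1 to 8 the median of observed over predicted over the 17 members was 2.63, 2.43, 5.09, 7.72, 2.23, 3.14, 2.75 and 2.21, and over the 154 others it was 0.921 to 0.967. Replicates 3 and 4 had the highest medians of the 17. These values come from the libraries of the test and are given as a description. The predicted level is set by the common share of the library itself. A member whose level in I varies little with the share therefore has a higher ratio where the share is low, by construction. The slope on the share had a median of 0.18 over the 17 members and 0.64 over the 154 others.

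In replicates 3 and 4, where the share was lowest, 16 of the 17 members stood over 2-fold above the prediction. In replicate 5, where it was highest, 9 did, and in the other 5 libraries 10 to 14. Since the share sets the prediction, this order is a description and no result about replicates 3 and 4. Over the whole list, 13 members in replicate 3 and 17 in replicate 4 were over 4-fold above, against 2 in replicate 5 and 4 to 6 in the remaining ones. Members under 0.5 times the prediction were most numerous in replicates 5 (39) and 3 (31). Where the share is low, the predicted level of members with low muscle levels is near the smallest level a count can give. Ratios there move in large steps, with 0.350 CPM in replicate 3 being 3.29 times the prediction for 1 member. The lowest ratio among the 154 members not called was 0 in replicates 3, 4 and 5.

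**Figure D3:**
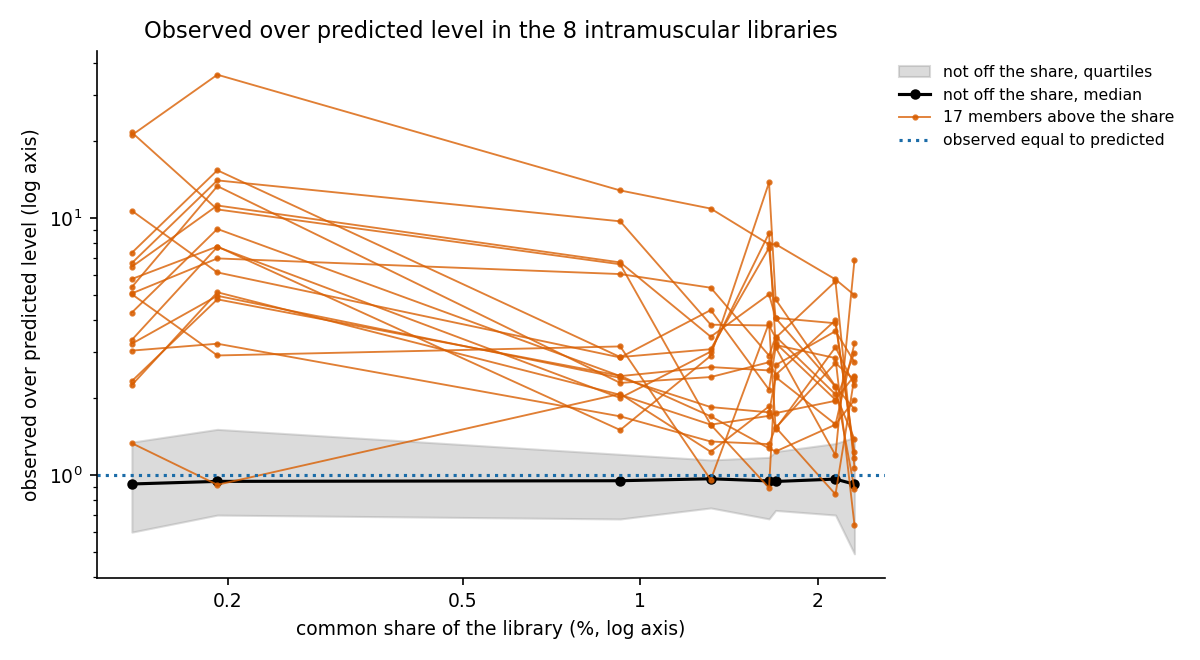
Observed over predicted level (vertical, log axis) in the 8 intramuscular libraries placed by their common share (horizontal, percent, log axis). The black line and grey band are the median and quartiles of the 154 members not off the share, the dotted line marks a ratio of 1, and orange lines are the 17 members above the share. The medians of the 17 were 5.09 and 7.72 in the libraries with the lowest shares, on the left, and 2.21 to 3.14 in the others. The share sets the prediction, so a member with a flat level falls from left to right by construction.

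The levels that chose the members are given for both groups as a description. The median over members of the O median was 0.942 CPM for those above the share and 0.525 CPM for those not called, and that of the S median was 0.491 and 0.455 CPM. The mean of the O and S levels was 0.468% of the muscle level in the median for members above the share, whose muscle levels were lower, against 0.0557% for the others. The fat level is subtracted in the share and is included in the predicted level. Among the M libraries the coefficient of variation had a median of 28.8% for members above the share and 38.4% for the others.

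ENSBTAG00000026586 lay furthest above the share. In I of replicates 1 to 8 it had 15.3, 14.2, 10.5, 19.5, 10.9, 13.5, 13.2 and 11.8 CPM. The highest was 1.86 times the lowest, and replicates 3 and 4, at opposite ends of this range, did not stand apart from the rest on the low side. The M libraries had 32.0 to 121 CPM with a median of 80.8, the O libraries 0.135 to 1.38 CPM and the S libraries 0 to 0.394 CPM, so I overlapped with none of them. Its mean share was 17.1 ± 3.75% (SD, n = 8), and it was 11.5-fold above the prediction (log2 3.52, SE 0.37, edgeR adjusted p = 1.0e-06), in 8 of 8 libraries. Observed over predicted ran from 5.01 in replicate 5 to 36.1 in replicate 4.

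ENSBTAG00000006253 was the second furthest, and it was one of the more abundant members. In I of replicates 1 to 8 it had 637, 1272, 413, 932, 271, 681, 746 and 1350 CPM. Its lowest level was in replicate 5, the library with the highest common share, and replicate 4 was among the 3 highest. The M libraries had 3346 to 18182 CPM with a median of 8107, the O libraries 24.6 to 92.7 CPM and the S libraries 23.2 to 119 CPM, again with no overlap with I. Its mean share was 8.38 ± 4.33% (SD, n = 8), and it was 6.02-fold above the prediction (log2 2.59, SE 0.44, edgeR adjusted p = 0.00022). Replicate 5 was barely above, at 1.07 times the prediction, and replicate 4 furthest, at 14.0 times.

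**Figure D4:**
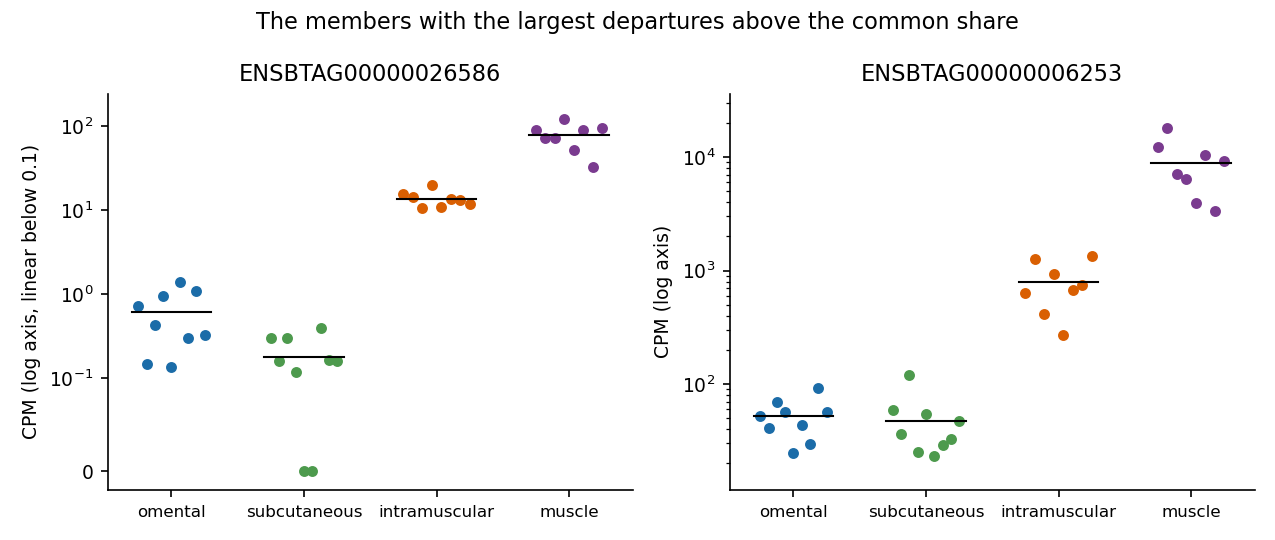
CPM of ENSBTAG00000026586 (left, log axis that is linear below 0.1) and ENSBTAG00000006253 (right, log axis) in each omental, subcutaneous, intramuscular and muscle library, with group means as lines. The 8 intramuscular libraries lie between the fats and muscle without overlap, at 10.5 to 19.5 CPM and at 271 to 1350 CPM.

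At the other end of the list, 10 members that did not pass the test were below the prediction in all 8 I libraries, and 3 that did not pass were above it in all 8. The lowest fitted ratio of any member was 0.443. In all, 12 members had no count in at least 1 I library.

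The 3 genes left out because they were on the primer list met the same thresholds and carry symbols, but the study chose that list on these samples. TPM2, a tropomyosin of the thin filament, had 839 to 2023 CPM in I and 21907 to 51135 CPM in M. Its mean share was 3.96 ± 1.18% (SD, n = 8), which was above the common share in 8 of 8 libraries (log2 1.66, SE 0.32, edgeR adjusted p = 0.00077). EEF1A2, the translation elongation factor of muscle and nerve, had 19.4 to 226 CPM in I and was above in 8 of 8 libraries (log2 1.37, SE 0.35, edgeR adjusted p = 0.0063). Its call was lost without replicate 2, 3 or 6 (log2 1.39 to 1.45, edgeR adjusted p from 0.0136 to 0.0154) and without the library labelled M of replicate 4 (log2 1.39, edgeR adjusted p = 0.0104). It was also lost, with a smaller difference, without all libraries of replicate 4 (log2 0.81, edgeR adjusted p = 0.0105) and without I of replicates 3 and 4 (log2 0.74, edgeR adjusted p = 0.0161). DUSP27, of the dual-specificity phosphatase family, had 1.05 to 25.8 CPM in I and a mean share of 1.47 ± 1.20% (SD, n = 8). It was not off the common share (log2 0.19, SE 0.22, edgeR adjusted p = 0.547).

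Finally, the pattern of members within an I library was set beside that within the M libraries. For each member and library, the deviation from the tissue mean was taken on a log2 scale after removal of the library's own shift, and libraries were correlated across the 171 members. Over the 7 pairs that the labels give to 1 animal, Pearson's r between I and M was 0.44 in replicate 1, 0.55 in replicate 2, 0.46 in replicate 3, -0.03 in replicate 4, 0.45 in replicate 5, 0.38 in replicate 6 and -0.03 in replicate 8. The median was 0.440, against -0.026 over the 57 other pairs, which ran from -0.479 to 0.562. In 4 of the 7 pairs the I library correlated best with the M library of its own number, the exceptions being replicates 4, 5 and 8. With the library labelled M of replicate 4 left out, the median was 0.447 over the 6 remaining pairs and -0.036 over the 50 others, and 4 of the 6 matched best with their own number. I of replicate 5 correlated best with M of replicate 8. Members are not independent of each other, so these values describe these libraries.

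**Figure D5:**
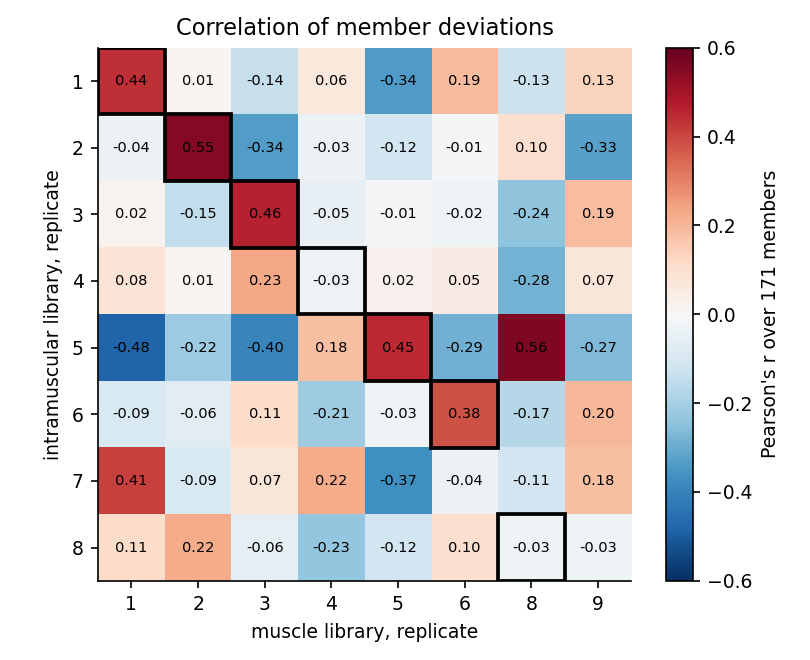
Pearson's r over 171 members between the deviations of each intramuscular library (rows, replicate) and each muscle library (columns, replicate). Framed cells are libraries with the same replicate number, which lay between 0.38 and 0.55 in 5 pairs and at -0.03 in replicates 4 and 8, the library labelled muscle of replicate 4 being the one that went against its label.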

How the data were processed

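The deposited tables hold raw read counts per Ensembl gene, 1 table for each of the 34 libraries. Per the labels and the study's methods, the authors mapped reads to bosTau6 with TopHat2 2.0.2 and counted them with HTSeq 0.5.3p3. The annotation version and strand setting were not given in the sources used here, so overlapping and near-identical genes are uncertain. Lines that name no gene (54.5 to 62.84% without a feature, 6.651 to 15.43% not unique and at most 0.1101% ambiguous) were left out of library sizes.

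Counts were scaled by TMM and tested with edgeR 4.0.16 (quasi-likelihood test, filterByExpr with a minimum count of 10, R 4.3.3), with Benjamini-Hochberg adjustment over all genes tested and a threshold of 0.01. The prediction for a gene was the common share times the muscle mean plus the remainder times the fat mean, with 0.1 CPM added. The scripts were tested on simulated data. DESeq2 1.42.0, the likelihood ratio test, other scalings and filters, and leaving out replicates were tried as alternatives. Slopes and correlations over members used log2(CPM + 0.5). The rule for named genes gave the 5 members with the highest muscle medians and those furthest off the share in every intramuscular library. With no symbols, only the 2 furthest are printed by identifier. The 5 with the highest muscle medians are described by rank, and the others above the share only as a group.

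Libraries with the same replicate number came from the same animal by the labels. Over all genes, deviations from the tissue means correlated within animals with medians of 0.103 between I and O (0.0454 to 0.502), 0.207 between I and S (-0.296 to 0.462) and 0.258 between I and M (0.0144 to 0.470). No 2 libraries of a tissue agreed within sampling noise (lowest chi-square per degree of freedom 12.7 over 128 pairs). Within a tissue each library is from another animal, and the labels gave no batch. Counting precision is limited by the counts given for each tissue, and counts of PCR reads are not independent molecules. The members and lists were chosen with earlier results of these data known.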

Additional observations from a re-analysis of the deposited data

Results flagged for a closer look

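Among 32 groups of values examined, 9 held a library with a wide gap to the rest of its group (Dixon's criterion). The criterion's rate of about 1 in 20 assumes independent values with a normal distribution. These groups share libraries and were not put on a log scale, so no excess over that rate can be read from the count. The median share of the members in O was 0.0173% in replicate 3, above the other O libraries. ENSBTAG00000006253 had 119 CPM in S of replicate 3, the next library having 59.3 CPM. The member most abundant in muscle was high in 3 tissues, with 1995 CPM in I of replicate 5 (next 893 CPM), 85930 CPM in M of replicate 9 (next 59100 CPM) and 23.3 CPM in S of replicate 9 (next 11.0 CPM). Of the genes left out, DUSP27 had 25.8 CPM in I of replicate 8 (next 11.1 CPM) and 0.173 CPM in O of replicate 6, all other O libraries having none. EEF1A2 had 13.8 CPM in O of replicate 9 (next 5.56 CPM) and 5.84 CPM in S of replicate 1 (next 1.81 CPM).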

How the results depend on the processing

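The number of members below the common share moved most. It was 0 as reported, 8 at an adjusted p under 0.05, 3 by the likelihood ratio test, 2 by DESeq2, 2 without scaling, 2 with the animal as a replicate block, 7 without M of replicate 8 (chosen after seeing the data) and 0 to 5 when 1 replicate was left out, 1 without replicate 7 and 5 without replicate 8. The cause was not tested. Without the count filter, 159 members were higher in I than in O and 162 higher than in S, since low members were then fitted. The median common share was 2.64% without scaling, and 1.27 to 1.67% when 1 replicate was left out. The number above the share was 14 to 16 in these fits and stayed within 1.5 times the reported 17 in all 20 alternatives. When 1 replicate was left out, the numbers higher in I were 91 to 110 against O and 92 to 106 against S, and without I of replicates 3 and 4 (chosen after seeing the data) they were 128 and 129. With the animal as a replicate block, to use the pairing, they were 93 and 95, with 16 above the share, and no named gene changed its call. The fit against the share kept the library labelled M of replicate 4, which went against its label, in the block of replicate 4. EEF1A2 lost its call in 6 of 19 alternatives, all of them with libraries left out (adjusted p up to 0.0161). ENSBTAG00000026586 and ENSBTAG00000006253 kept their call in all 19 alternatives each, with an edgeR or DESeq2 adjusted p of at most 1.5e-05 and 0.0015. Members with few counts in I limit what can be seen below the share, as 12 had no count in some I library.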
